A study of Mus musculus with 4 samples.

Results

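The genes described here are 35 signalling, adaptor and cytoskeleton genes that white blood cells of most kinds use, read in mouse aorta. Every probe set paired with exactly 1 of their symbols was taken, which gave 79 probe sets of 34 genes, out of 18193 genes that the array names in that way. Lyn had no probe set paired with its symbol alone and was not analysed here. The samples were aortas of 6-week-old mice in which Smad4 was deleted in smooth muscle cells (Smad4-KO) and of their wild-type littermates (WT). Each genotype had 2 Affymetrix arrays, numbered replicate 1 and replicate 2, and for each array RNA of 3 to 5 vessels was pooled and 400 ng of it was labelled. Smad4 relays TGF-beta and BMP signals. Whether cells other than smooth muscle kept the gene was not measured here. The promoter that drove the deletion and the part of the gene that was removed were not stated in the labels. A value after ± is the standard error of the difference between 2 and 2 arrays from limma, signals are in the arbitrary units of the array, and differences are Smad4-KO minus WT on the log2 scale.

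White blood cells carry a common signalling and cytoskeletal apparatus that smooth muscle, endothelium and fibroblasts largely lack. When a surface receptor is engaged, Src family kinases and Syk phosphorylate adaptor proteins, which gather Vav1, phosphoinositide 3-kinases and phospholipases at the membrane. Exchange factors of the Dock and Vav families then switch on Rac GTPases, and the WAVE and WASP complexes, coronin and plastin rebuild the actin network for migration and engulfment. The phosphatases Ptpn6 (SHP-1) and Inpp5d (SHIP-1) damp these signals. In the artery wall such genes are mainly known from resident macrophages, from leukocytes that enter during inflammation, and from blood left in the vessel.

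The promoters of blood-cell genes are known to use Ets family factors such as PU.1, whose sites hold the letters GGAA, so the promoter letters are shown first. RefSeq (GRCm38.p6) gave promoters for 29 of the 35 genes, 38 windows of 300 bases from 250 bases before to 50 after a start site. The 120 bases before the start site follow for genes described later, and capitals mark the letters GAGGAA or GGAAGT on either strand.
Ptprc, chr1:138175306-138175425, minus strand: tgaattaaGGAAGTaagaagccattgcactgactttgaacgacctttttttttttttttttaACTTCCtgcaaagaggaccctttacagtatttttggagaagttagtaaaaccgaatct
Cd53, chr3:106790150-106790269, minus strand: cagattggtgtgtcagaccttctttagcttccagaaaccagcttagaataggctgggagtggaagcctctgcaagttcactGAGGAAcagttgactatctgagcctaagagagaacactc
Plek, chr11:17008719-17008838, minus strand: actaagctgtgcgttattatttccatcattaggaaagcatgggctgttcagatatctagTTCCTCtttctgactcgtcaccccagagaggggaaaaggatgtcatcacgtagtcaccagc
Hcls1, chr16:36934863-36934982, plus strand: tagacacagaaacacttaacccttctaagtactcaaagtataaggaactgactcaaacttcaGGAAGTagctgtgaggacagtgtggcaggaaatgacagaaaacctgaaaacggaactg
Vav1, chr17:57278980-57279099, plus strand: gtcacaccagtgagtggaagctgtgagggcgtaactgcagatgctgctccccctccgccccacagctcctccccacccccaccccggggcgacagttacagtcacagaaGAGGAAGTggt
Lcp1, chr14:75136305-75136424, plus strand, from the downstream of its start sites: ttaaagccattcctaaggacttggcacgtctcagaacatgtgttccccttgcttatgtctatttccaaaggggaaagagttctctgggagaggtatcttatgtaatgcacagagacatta
GGAAGT or its reverse complement stood in 23 of the 38 windows (60.5%), against 23.8% of all 32851 promoter windows in that table. GAGGAA stood in 18 of the 38 (47.4%), against 28.3% of all. The 53 windows of other blood-cell signalling genes held GGAAGT in 49.1% and GAGGAA in 54.7%. The motifs can overlap, as in Vav1, where 8 letters hold both, 11 bases before the start. The Lcp1 window shown holds neither. TGTGGT, the core of RUNX sites, stood in 18.4% of the windows, against 28.3% of those of the other blood-cell genes and 16.8% of all, and TATAAA in 10.5% against 13.6%. The median GC content of the windows was 53.2%, close to the 52.7% of all promoter windows. It was 66.2% in the 32 windows of broadly expressed relatives described further on, of which 10 held GGAAGT and 8 held GAGGAA. These are matches of letters, with no test and no measure of binding.

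Median signals of the arrays were 111 and 132 in WT, against 133 and 137 in Smad4-KO. Smad4 itself read 4394 and 3819 in WT, against 2676 and 3580 in Smad4-KO, and its difference of -0.40 ± 0.32 did not pass the test (limma, adjusted p = 0.626). The Dap labelling control had high 3'/5' ratios on WT replicate 1 (10.02) and Smad4-KO replicate 2 (14.1), and lower ones on WT replicate 2 (2.96) and Smad4-KO replicate 1 (3.62). Xist was bright on both arrays numbered 1 (15192 and 6223) and at most 135 on both numbered 2. Acta2, a marker of smooth muscle, was bright on every array, at 47232 and 57304 in WT, against 30692 and 39989 in Smad4-KO. Its difference of -0.57 was the nearest to 0 of the 8 smooth muscle markers measured, whose median was -2.38.

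The question is how the loss of Smad4 in smooth muscle goes with leukocyte signalling and cytoskeleton genes in the vessel. Of the 34 genes measured, 26 rose in Smad4-KO and 0 fell, while 8 did not pass the test. Over all 13645 genes tested, 4.92% were called higher and 1.39% lower (limma, Benjamini-Hochberg adjusted p under 0.05). Both Smad4-KO arrays lay above both WT arrays for 33 of the 34, against 25.9% of all genes, and below them for 0, against 21.4%. The exception was Pik3cd. The median difference of the 34 was 2.83, against -0.01 for all genes, and the rises ran from 4.57-fold (Myo1g) to 18.9-fold (Lcp2). The count was 0 with a block for pairs of arrays of like labelling ratio, with genes of low signal kept, and without WT replicate 2, and 14 without WT replicate 1, while the median difference stayed between 2.52 and 3.24. All 34 passed the filter on low signal, which uses the mean over the 4 arrays. In whole vessels, more cells of a type and more RNA per cell cannot be told apart.

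**Figure D1:**
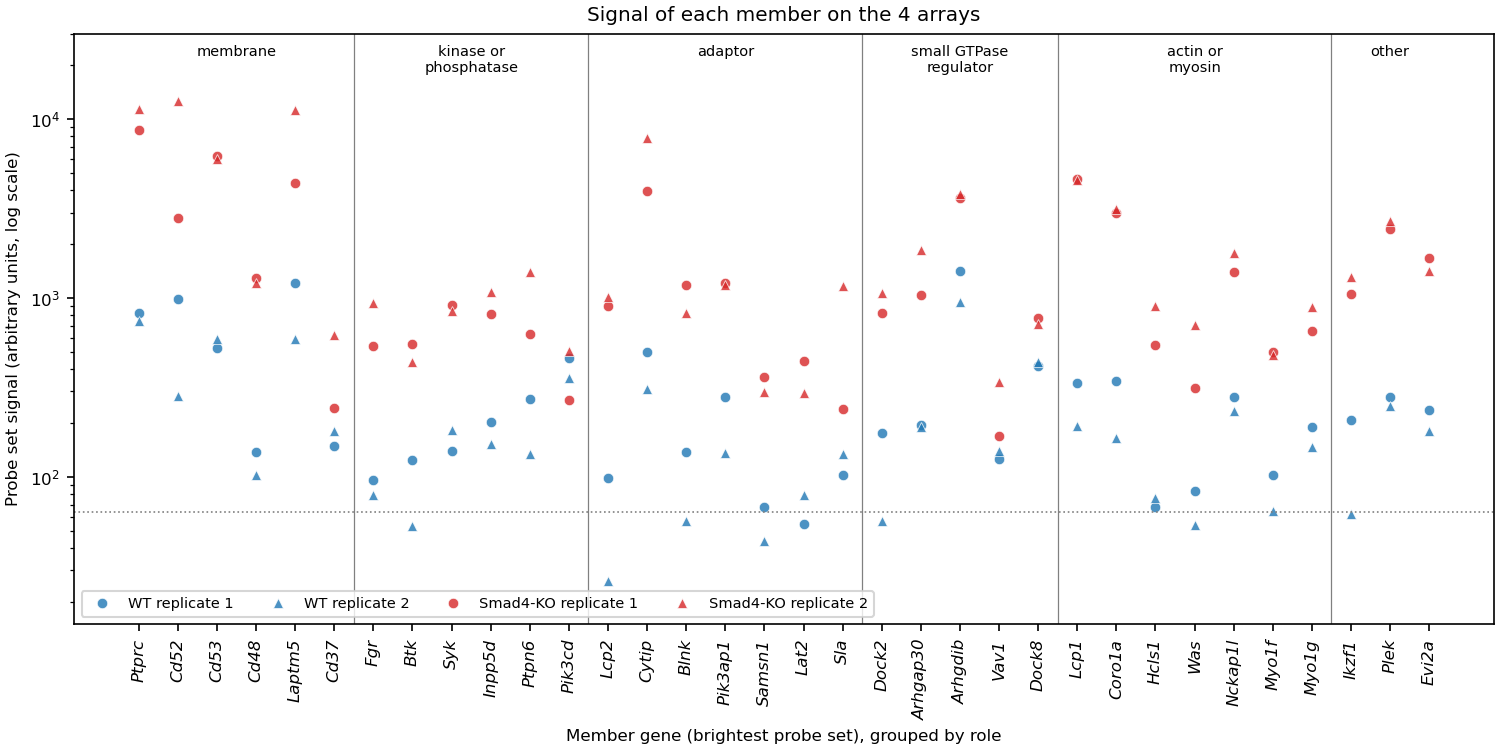
Signal of the brightest probe set of each of the 34 genes on each array, on a log axis, grouped by role (WT in blue, Smad4-KO in red, circles for replicate 1 and triangles for replicate 2, with a dotted line at a signal of 64). For 33 genes both red points lie above both blue points, and for Pik3cd they overlap.

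Among the membrane proteins, 4 of 6 rose, with a median difference of 3.42. Ptprc (CD45), the receptor phosphatase found on all nucleated blood cells, read 820 and 747 in WT, against 8667 and 11348 in Smad4-KO. Its replicates lay close together in both genotypes, and it rose 12.7-fold (3.66 ± 0.31, limma, adjusted p = 0.0125). Cd53, a tetraspanin of leukocytes, read 525 and 590 in WT, against 6201 and 5967 in Smad4-KO, a rise of 10.9-fold (3.45 ± 0.29). Cd48, a ligand of the SLAM receptor family, read 138 and 103 against 1294 and 1211 and rose 10.5-fold (3.39 ± 0.32). These genes had no overlap between genotypes and little spread within them. Laptm5, a lysosomal protein of blood cells, read 1208 and 590 in WT, against 4369 and 11235 in Smad4-KO, and rose 8.30-fold (3.05 ± 0.59, adjusted p = 0.0469 in limma). Cd52, a small glycosylphosphatidylinositol-anchored antigen of lymphocytes and some myeloid cells, read 989 and 281 in WT but 2814 and 12660 in Smad4-KO. Its difference of 3.50 ± 0.90 was among the larger of the group, yet its spread within genotypes was wide and it did not pass (limma, adjusted p = 0.0966). Cd37, a tetraspanin most abundant on B cells, read 149 and 180 against 244 and 617, and its difference of 1.24 ± 0.50 did not pass either (limma, adjusted p = 0.269).

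Of the 6 kinases and phosphatases measured, 4 rose, and the median difference was 2.43. Syk, the tyrosine kinase that binds phosphorylated immune receptors, read 139 and 182 in WT, against 909 and 848 in Smad4-KO, a rise of 5.52-fold (2.46 ± 0.31). Fgr, a Src family kinase of myeloid cells, read 96.0 and 79.0 against 539 and 933, a rise of 8.14-fold (3.02 ± 0.38). Btk, the Tec family kinase of B cells and myeloid cells, read 125 and 53.2 against 552 and 436, a rise of 6.02-fold (2.59 ± 0.48). Each of these kinases read at least 436 on both Smad4-KO arrays and at most 182 on both WT arrays. Inpp5d, which removes the 5' phosphate of the lipid that phosphoinositide 3-kinases make, read 203 and 153 against 808 and 1082 and rose 5.29-fold (2.40 ± 0.34). Ptpn6, the tyrosine phosphatase of inhibitory receptors, read 273 and 134 in WT, against 630 and 1400 in Smad4-KO. The genotypes did not overlap, but its 4.92-fold higher mean, with a 95% interval of 0.92 to 3.67 on the log2 scale, did not pass (limma, adjusted p = 0.0791). Pik3cd, the leukocyte catalytic subunit of phosphoinositide 3-kinase, had the lowest difference of the 34 genes, with signals of 460 and 357 in WT, against 268 and 506 in Smad4-KO (-0.14 ± 0.41, limma, adjusted p = 0.922). That value rests on the brightest of its 6 probe sets, and others read differently, as given with the probe sets below.

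Of the 7 adaptors, 6 rose, with differences from 2.17 to 4.24 over all 7. Lcp2 (SLP-76), a scaffold downstream of Syk and its relative Zap70, read 98.3 and 26.1 in WT, against 906 and 1013 in Smad4-KO. It had the largest difference of the 34 (4.24 ± 0.65, limma, adjusted p = 0.0263), an 18.9-fold rise that is 12.1-fold when signals under 64 are raised to 64, below Lcp1, Cytip, Coro1a and Ptprc. Cytip, which regulates cytohesin and integrin adhesion, read 500 and 311 against 3960 and 7832 and rose 14.1-fold (3.82 ± 0.46). Blnk, the scaffold of B cells and macrophages that links Syk to Btk, read 138 and 56.6 against 1183 and 824, a rise of 11.2-fold (3.48 ± 0.51). On these 3 adaptors the lowest Smad4-KO signal was several times the highest WT signal. Pik3ap1 (BCAP), an adaptor for phosphoinositide 3-kinase, rose 6.13-fold (2.62 ± 0.43), and Lat2 (NTAL), a membrane adaptor of B and myeloid cells, 5.50-fold (2.46 ± 0.38). Samsn1, an adaptor that restrains B cell activation, read 67.4 and 43.7 against 360 and 299.7 and rose 6.04-fold (2.60 ± 0.35), or 5.00-fold with that floor. Sla (SLAP), which lowers antigen receptor signalling, read 103 and 134 in WT but 239 and 1174 in Smad4-KO. Its difference of 2.17 ± 0.76 did not pass (limma, adjusted p = 0.198), and the gap between its Smad4-KO replicates was the largest of the 34 genes.

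The regulators of small GTPases had the lowest median of the role groups (1.68), and 2 of 5 rose. Dock2, the Rac exchange factor of leukocyte migration, read 176 and 56.9 in WT, against 825 and 1067 in Smad4-KO, a rise of 9.39-fold (3.23 ± 0.58). Arhgap30, a GTPase-activating protein of small GTPases, read 194 and 190.3 against 1040.4 and 1843, a rise of 7.20-fold (2.85 ± 0.38). For both genes the lowest Smad4-KO signal was above the highest WT signal. Arhgdib, the leukocyte inhibitor of nucleotide exchange on small GTPases, was already bright in WT at 1410 and 953, and read 3622 and 3793 in Smad4-KO. Its difference of 1.68 ± 0.34 missed the threshold narrowly (limma, adjusted p = 0.0503). Dock8, a Cdc42 exchange factor, read 416 and 441 against 769 and 711, with a difference of 0.79 ± 0.29 (limma, adjusted p = 0.223). Vav1, the Rac exchange factor of blood cells, read 125 and 139 against 170 and 339.5 (0.87 ± 0.42, limma, adjusted p = 0.362), again from the brighter of its probe sets.

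All 7 actin and myosin genes rose, with differences from 2.19 to 4.17. Lcp1 (L-plastin), which bundles actin filaments in leukocytes, read 336 and 193 in WT, against 4625 and 4548 in Smad4-KO, a rise of 18.0-fold (4.17 ± 0.38, limma, adjusted p = 0.0125). Coro1a, a coronin that promotes actin turnover, read 344 and 164 against 2967 and 3137 and rose 12.8-fold (3.68 ± 0.43). Hcls1 (HS1), the blood-cell counterpart of cortactin, read 67.9 and 75.7 against 549 and 902 and rose 9.82-fold (3.30 ± 0.36). For these 3 genes the lowest Smad4-KO signal was above the highest WT signal by a wide margin. Nckap1l (Hem-1), the blood-cell subunit of the WAVE complex, rose 6.20-fold (2.63 ± 0.32), and Was, the Wiskott-Aldrich syndrome protein that activates the Arp2/3 complex, 7.03-fold (2.81 ± 0.50). The unconventional class I myosins Myo1f and Myo1g rose 6.04-fold (2.59 ± 0.35) and 4.57-fold (2.19 ± 0.34).

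The 3 genes outside these roles rose as well. Plek (pleckstrin), a protein kinase C substrate of platelets and leukocytes, read 281 and 249.6 in WT, against 2443 and 2705 in Smad4-KO, a rise of 9.71-fold (3.28 ± 0.30, limma, adjusted p = 0.0125). Ikzf1 (Ikaros), a zinc finger transcription factor of the lymphoid lineage, read 207 and 62.1 against 1047 and 1304 and rose 10.3-fold (3.37 ± 0.61). Evi2a, a membrane protein encoded within an intron of Nf1, read 236 and 179.8 against 1665 and 1414 and rose 7.45-fold (2.90 ± 0.32). Evi2a lies inside another gene, and the strand of each probe was not checked here.

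Many of these proteins belong to families with relatives that cells outside the blood also use, and 29 such relatives were measured on the same arrays. Of the relatives 0 rose and 0 fell in limma, and their median difference was -0.26 against 2.83 for the leukocyte genes. At an unadjusted p under 0.05 in limma were 4 of the 29, beside 2634 of all 13645 genes. The difference within a pair of relatives was not tested. Where Lcp1 differed by 4.17, Pls3, the plastin of non-blood cells, read 19843 and 26040 in WT, against 10540 and 9249 in Smad4-KO, a difference of -1.20 ± 0.32 (adjusted p = 0.102). Cortactin (Cttn), beside Hcls1, read 8658 and 8832 against 7104 and 10275 (-0.03 ± 0.33). It turned positive with quantile normalization. Nckap1, beside Nckap1l, read 8906 and 8579 against 7534 and 7303 (-0.24 ± 0.29), and Wasl (N-WASP), beside Was, 5268 and 5887 against 3436 and 4818 (-0.45 ± 0.33). The 95% intervals of Cttn (-0.86 to 0.79), Nckap1 (-0.96 to 0.49) and Wasl (-1.27 to 0.37) each end below 1 on the higher side.

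The other relatives had a wider range, from -2.14 (Plek2) to 0.93 (Vav2). Ptpn11 (SHP-2), beside Ptpn6, differed by -0.50 ± 0.32, and Inppl1 (SHIP-2), beside Inpp5d, by 0.06 ± 0.30, a value that was negative with arrays centred on their medians. The ubiquitous catalytic subunits Pik3ca and Pik3cb differed by -0.61 ± 0.31 and -0.20 ± 0.37. The Src family kinases Src, Fyn and Yes1 differed by -0.37 ± 0.34, 0.63 ± 0.29 and 0.22 ± 0.34, and Ptpra, a receptor phosphatase beside Ptprc, by -0.08 ± 0.35. Of the exchange factors, Dock1 differed by -0.21 ± 0.30, Dock6 by -0.36 ± 0.35, Vav2 by 0.93 ± 0.30 and Vav3 by 0.41 ± 0.29. Vav2 lay slightly above Vav1 (0.87 on its brightest probe set). Coro1b and Coro1c had differences of opposite sign (0.73 ± 0.29 and -0.83 ± 0.39), and the myosins Myo1e and Myo1d differed by -0.76 ± 0.32 and -0.47 ± 0.35. The tetraspanins Cd81, Cd151 and Cd9 differed by -0.38 ± 0.30, -0.53 ± 0.45 and -0.46 ± 0.34. Laptm4a and Laptm4b differed by -0.25 ± 0.46 and -0.55 ± 0.35, Sash1 (beside Samsn1) by -0.15 ± 0.39, Grasp (beside Cytip) by -0.26 ± 0.37 and Arhgap31 (beside Arhgap30) by 0.53 ± 0.29. Plek2 had the lowest value, -2.14 ± 0.52 (limma, adjusted p = 0.0848), with signals of 123 and 118 in WT, against 16.5 and 45.1 in Smad4-KO. With signals under 64 raised to 64 it was -0.91, and Pls3 (-1.20) then lay below it. A p that misses the threshold does not show that these genes were alike in the genotypes.

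**Figure D2:**
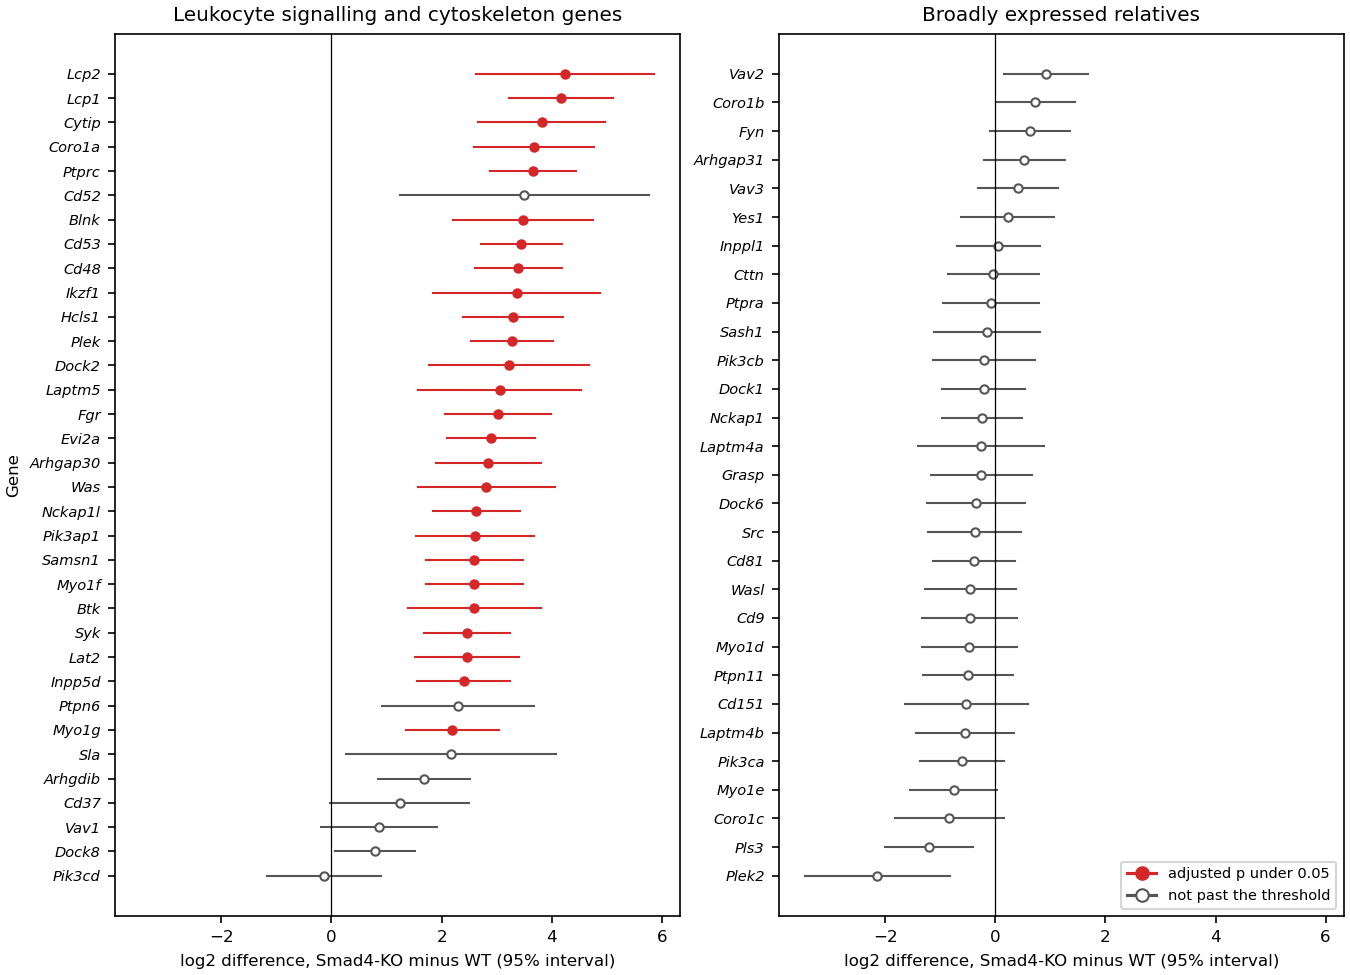
Log2 difference of each gene with its 95% interval from limma, for the 34 leukocyte genes (left) and the 29 broadly expressed relatives (right), with filled red points past an adjusted p of 0.05. On the left 26 of 34 points are red and the median of all 34 is 2.83, and on the right none is red and the median is -0.26.

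Other signalling genes of blood cells, a list of 55 chosen by function, were measured beside them. Of 46 tested, 19 rose and 0 fell, with a median difference of 1.91. The 6 largest rises were Lpxn (leupaxin, a focal adhesion protein, 14.3-fold), Fcer1g (the signalling chain of Fc receptors, 13.2-fold), Itgb2 (the beta-2 integrin chain, 11.8-fold), Tyrobp (DAP12, a myeloid signalling chain, 11.4-fold), Cd84 (a SLAM family receptor, 10.2-fold) and Prkcb (protein kinase C beta, 7.70-fold). Forms of this apparatus typical of T cells did not pass. Skap1, an adaptor, read 35.9 and 65.1 in WT, against 188 and 145 in Smad4-KO (1.77 ± 0.40, limma, adjusted p = 0.0714), and Lat, the T cell counterpart of Lat2, 169 and 112 against 375 and 198 (0.99 ± 0.44, limma, adjusted p = 0.314). Zap70, the T cell relative of Syk, read 1048 and 1035 against 290.4 and 505 on its brightest probe set (-1.44 ± 0.38, limma, adjusted p = 0.0998). With the mean of its 3 probe sets that difference was 1.28, of the opposite sign.

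Some markers of several kinds of white blood cell rose beside these genes, and their part in the result was not tested. Of 12 macrophage markers 11 were measured and 5 rose, and their summed signal was 10783 to 14659 in WT and 34353 to 56080 in Smad4-KO. Cd68, a lysosomal protein of macrophages, rose (3.45), whereas Csf1r, the receptor of their growth factor, read 6029 and 3087 against 9588 and 22040 and did not pass. The differences of Cd163, a scavenger receptor (-0.56), and Mertk, a receptor for the uptake of dead cells (-0.36), were below 0 and did not pass. Of 11 neutrophil markers 9 were measured, 7 tested, and 5 rose, with sums of 598 and 1787 in WT, against 14657 and 18497 in Smad4-KO. S100a8, a calcium-binding protein of neutrophils and monocytes, read 762 and 189.8 against 6060.5 and 10042. The 11 T cell markers summed to 610 and 909 in WT, against 2161 and 2381 in Smad4-KO, and of 8 tested 1 rose, Cd3d (2.33). In limma 7 of the 8 had an unadjusted p under 0.05, beside 2634 of all 13645 genes. Cd3e stayed under the filter, at 24.7 and 13.6 against 181 and 43.8. Of 4 natural killer cell markers tested 1 rose, with 3 at an unadjusted p under 0.05 in limma. The lowest value deposited for any probe set was 0.052, so a signal above 0 does not show that a marker was present. The mean WT signal was under 64 for 6 of the 9 neutrophil markers measured, 5 of the 11 T cell markers and 0 of the 11 macrophage markers.

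Some markers of lymphoid tissue stood out on a single array. Ms4a1 (CD20), a B cell antigen, read 1074 on Smad4-KO replicate 1 but 113 on replicate 2, with 180.5 and 95.2 in WT, and Glycam1, a mucin of the high endothelial vessels of lymph nodes, read 4135 on Smad4-KO replicate 1 and at most 25.4 on the other arrays. Cxcl13, a chemokine of lymphoid stroma, was high on both Smad4-KO arrays (2550.5 and 1343, against 152 and 80.8 in WT) and rose 16.7-fold (limma, adjusted p = 0.0173). Of 6 B cell markers tested 0 rose in limma, with 2 at an unadjusted p under 0.05, beside 2634 of all 13645 genes. Without Smad4-KO replicate 1, 24 of the 34 leukocyte genes passed and the median difference of all 34 was 3.24. Of the 26 genes called on all arrays, 21 were among these 24, while Btk, Ikzf1, Dock2, Lat2 and Pik3ap1 were not, and the other 3 were Sla, Cd52 and Ptpn6. Nerve cell markers rose too (7 of 7 tested), from sums of 1038 and 1166 in WT to 21862 and 31385 in Smad4-KO, and of 8 smooth muscle markers 4 fell and 0 rose. Mast cell (0 of 6), red cell (0 of 2), dendritic cell (0 of 5) and platelet markers (0 of 6) included no call, with 0, 0, 1 and 3 at an unadjusted p under 0.05 in limma.

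The probe sets of a gene did not always read alike. Of the 79 probe sets, 67 passed the filter on low signal and 12 did not. Fitted one by one over 26209 probe sets, 10 of the 67, from 9 genes, were called higher and 0 lower, against 0.702% higher and 0.0801% lower of all. The differences of the 67 were above 0 for 62 and below 0 for 5. The filter uses the mean over the 4 arrays, so a probe set low in WT can pass through its Smad4-KO signals alone. The called probe set of Myo1f did so, at 20.0 and 11.4 in WT, against 283 and 382 in Smad4-KO. A called probe set of Plek, at 29.3 and 41.9 against 432 and 523, also had a WT mean under the filter, as did one of Arhgap30 given below. Some probe sets that were not called passed in the same way, such as the dimmer one of Vav1. The 62 differences above 0 therefore include probe sets let in by their Smad4-KO signals. Within the 22 genes that had several tested probe sets, the median range of differences was 1.66. Pik3cd had 6 probe sets, and beside its brightest another read 146 and 139 in WT, against 856 and 655 in Smad4-KO (2.39 ± 0.34, limma, adjusted p = 0.0617 among all probe sets). Vav1 had a dimmer probe set at 27.3 and 15.8 against 188 and 400 (3.72 ± 0.53, limma, adjusted p = 0.0617). Sla had 3 further probe sets, each under 64 on both WT arrays, with differences of 3.51, 4.40 and 3.41. For these 3 genes the brightest probe set gave the smallest difference of those tested. With signals under 64 raised to 64 this held for Pik3cd and Vav1 but not for Sla. The Sla probe set at 3.51 read 18.8 and 7.11 in WT and was then 2.06-fold, against 4.51-fold for the brightest. The dimmer probe set of Vav1 was then 4.29-fold.

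Other genes had a probe set with little or opposite change. Ikzf1 had a probe set that read 84.3 and 91.8 in WT, against 71.1 and 67.2 in Smad4-KO (-0.35 ± 0.32), and Arhgap30 one at 64.4 and 74.5 against 53.8 and 76.6 (-0.11 ± 0.37). The remaining probe set of Arhgap30 read 16.6 and 15.3 in WT, against 244 and 477 in Smad4-KO, and rose (4.42 ± 0.45, limma, adjusted p = 0.0473). That probe set passed the filter through its Smad4-KO signals alone. Its 21.4-fold rise is 5.33-fold with signals under 64 raised to 64. Laptm5 had 5, of which 4 had differences from 1.86 to 3.05 and the remaining one -1.42 ± 0.34 (limma, adjusted p = 0.154), at 118 and 121 in WT, against 51.1 and 39.3 in Smad4-KO. The 3 tested probe sets of Dock8 gave differences of 0.79, 0.69 and -0.27, and none passed. Where in the transcript each probe set lies was not examined here.

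**Figure D3:**
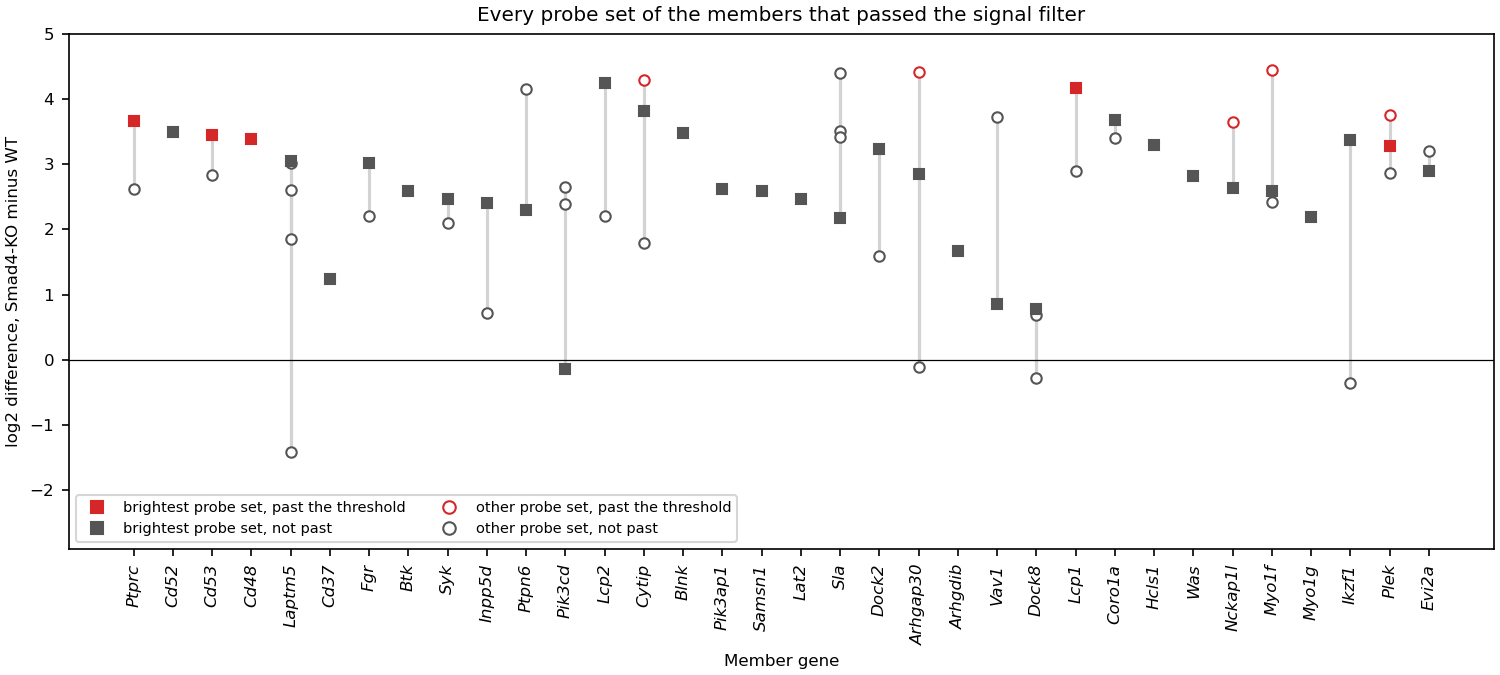
Log2 difference of every tested probe set of the 34 genes, joined by a line within a gene (squares for the brightest probe set, circles for others, red past an adjusted p of 0.05 in the fit of all probe sets). Of 67 probe sets 62 lie above 0, and Pik3cd, Vav1 and Sla have probe sets far above their brightest. The dimmer probe sets of Vav1 and Sla have WT signals under 64.

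The replicates of a genotype also differed from each other in a shared pattern over these genes. WT replicate 1 read above WT replicate 2 for 26 of 34 genes, and Smad4-KO replicate 2 above replicate 1 for 22. The mean of WT replicate 1 and Smad4-KO replicate 2 was above that of the other arrays for 30 of 34 genes, against 49.2% of all genes, with a median log2 excess of 0.42 against -0.01. These are the arrays with high 3' to 5' ratios of the Dap control (10.02 and 14.1, against 2.96 and 3.62), and the part of labelling in the pattern was not tested. The excess was largest for Cd52 (1.99), then Laptm5 (1.20), Ptpn6 (1.09), Lcp2 (1.04) and Ikzf1 (1.03), and lowest for Lat2 (-0.57). Within pairs of arrays of like ratio, the median difference of the 34 genes was 2.63 between Smad4-KO replicate 2 and WT replicate 1, and 2.92 between Smad4-KO replicate 1 and WT replicate 2. Within pairs of the same replicate number it was 2.33 and 3.31.

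**Figure D4:**
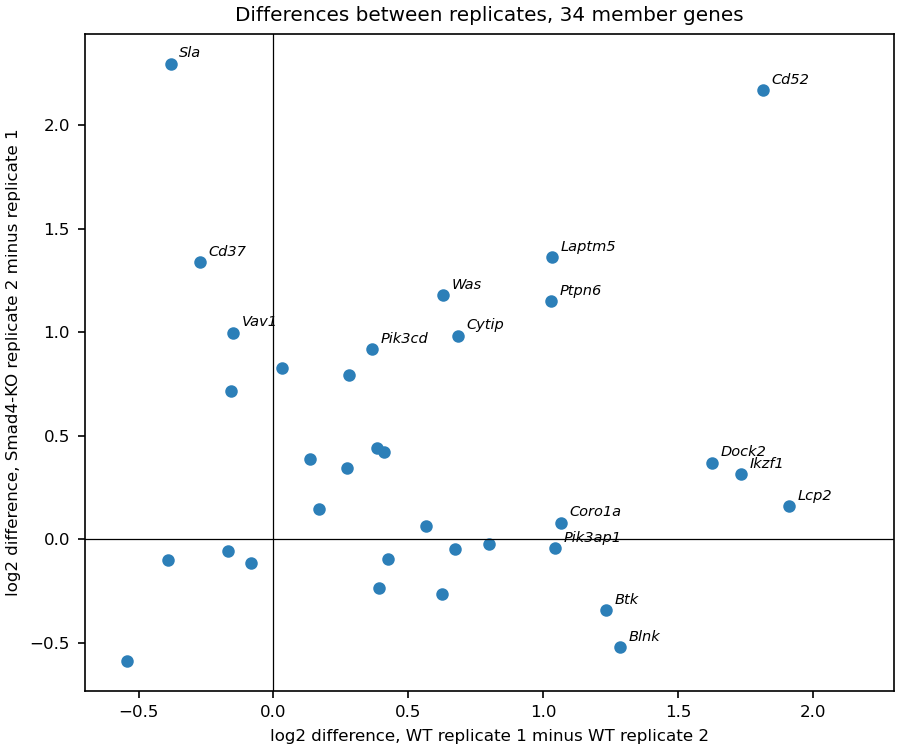
Difference between the WT replicates (replicate 1 minus 2, horizontal) and between the Smad4-KO replicates (replicate 2 minus 1, vertical) for the 34 genes, both on the log2 scale. Most points lie right of 0 (26 genes) and above 0 (22 genes), with Cd52 farthest along both axes together and Sla highest.

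The number of the 34 genes that passed changed with the fit. With the replicate number as a block 30 rose, against 7.59% of all genes, and with trend and robust moderation 27 (5.48%). With signals under 64 raised to 64, 27 rose (5.3%), after quantile normalization 22 (4.07%) and with arrays centred on their medians 20 (3.32%). With the filter raised to the 50th percentile, 20 of the 23 that remained rose (5.28%), and with probe sets averaged by gene 19 of 33 (3.13%). At an adjusted p of 0.10 it was 29 (7.75%). With genes of low signal kept, and with a block for the pairs of like labelling ratio, limma called 0 of the 34 and 0% of all genes, with 29 and 31 of the 34 at an unadjusted p under 0.05 and lowest adjusted p of 0.0725 and 0.0557. Without WT replicate 2 it likewise called 0 (0%, 29 at an unadjusted p under 0.05), and without WT replicate 1 it called 14 (1.85%). Without Smad4-KO replicate 1 it called 24 (4.27%) and without replicate 2, 19 (4.63%).

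**Figure D5:**
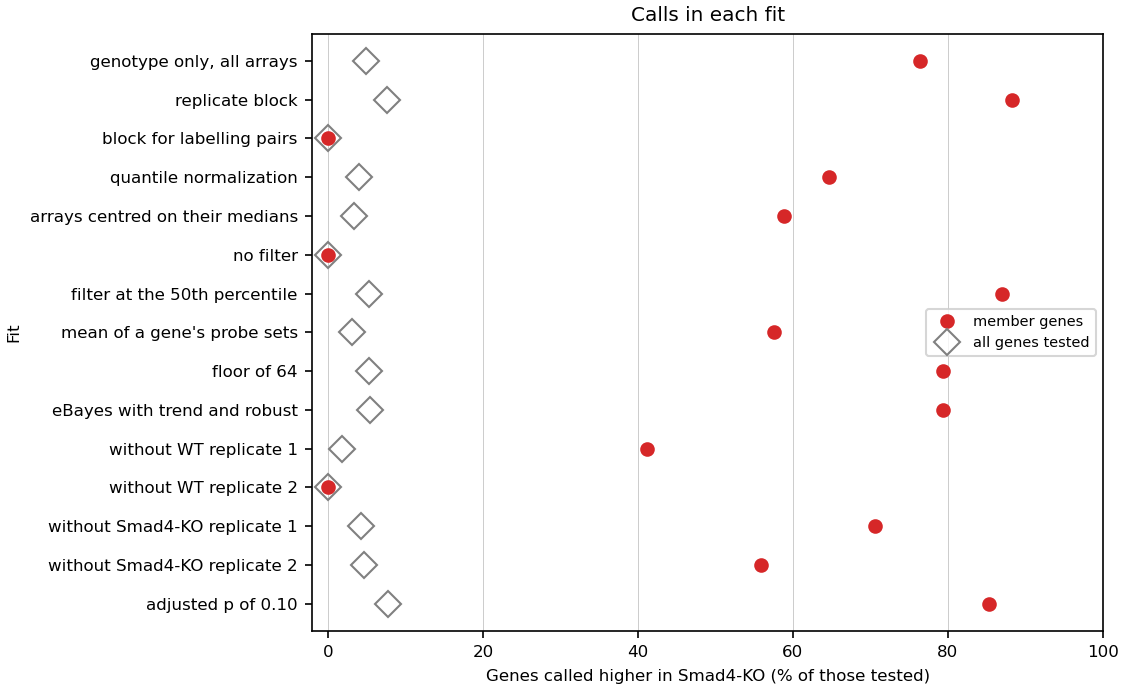
Share of the tested leukocyte genes (red) and of all tested genes (grey diamonds) called higher in Smad4-KO in each fit, in percent. In 3 fits both shares are 0, and in the others 14 to 30 of the leukocyte genes passed.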

How the data were processed

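Expression was read on Affymetrix arrays in 4 aorta pools, 2 of each genotype. The authors deposited 1 linear intensity per probe set and array. The tools named, per the submitters' processing notes, are Affymetrix Expression Console and RMA, but the linear values with unequal distributions between arrays do not have the form RMA gives. Whether probe sets were detected, and a genome build, were not stated in the labels. Of 45101 probe sets, 34945 had exactly 1 gene symbol. After log2 transformation, each gene took the probe set with the highest mean over the 4 arrays. Genes whose mean lay under the 25th percentile (5.64) were dropped, and 13645 remained. The test was two-sided, by lmFit and eBayes of limma 3.58.1 in R 4.3.3, with genotype as the factor and Benjamini-Hochberg adjustment over all genes. With 2 arrays against 2, an exact permutation test of 1 gene could not go below p = 0.333, so none was run. The labels call the arrays biological replicates, and p-values measure the spread between these pools alone.

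The procedure was tested on simulated data. The genes, the lists of other blood-cell genes, relatives and markers, and the alternatives were chosen with earlier results of these data known. All measured genes of the group are named. Of the other lists, the text names the 6 largest rises among blood-cell signalling genes past the threshold, the T cell forms, all relatives, and a few markers, with Glycam1, Cxcl13, Cd3d, Cd163, Mertk and Acta2 chosen after their values were seen. The replicate numbers were not taken as pairs, since the labels name nothing that same-numbered arrays share and their deviations from the group means correlated at -0.01 across genes. Xist did go with the number, and a block for the number was among the alternatives. Figures were made with Python 3.11.15 and matplotlib 3.10.9. Precision is limited by having 2 arrays a genotype.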

Additional observations from a re-analysis of the deposited data

How the results depend on the processing

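Over 14 alternatives, 33 of the 34 leukocyte genes kept a positive difference wherever they were tested. Both blocks, both changes of the filter, trend and robust moderation and the adjusted p of 0.10 cannot change a difference. Leaving out an array or raising signals under 64 to 64 cannot make a difference negative where both Smad4-KO arrays lie above both WT arrays. That was so for these 33 genes. For them only quantile normalization, centring on medians and averaging of probe sets could have turned a sign. Pik3cd alone turned, to 1.11 with its probe sets averaged, and it ranged from -0.60 to 0.32 with an array left out. The replicate block raised the count of leukocyte genes called from 26 to 30. That count was 0 with a block for the labelling pairs and with no filter, and 0 to 24 with an array left out. In such fits limma takes the single array left in a genotype to vary like the other group. Of the other blood-cell signalling genes, 19 became 0 with a block for the labelling pairs, 12 after quantile normalization, 10 with arrays centred on their medians, 0 with no filter, 9 with the mean of probe sets, 29 at an adjusted p of 0.10, and 0 to 17 with an array left out. Of the relatives 1 was called lower, Plek2, with the replicate block, at an adjusted p of 0.10 and without Smad4-KO replicate 2 (0 to 1 with an array left out). Centring on medians moved the median of all genes to -0.22.

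In the fit of every probe set, an addition made after seeing the data, the 10 calls became 6 with the replicate block, 0 with a block for the labelling pairs, after quantile normalization, with arrays centred on their medians and with no filter, 27 with the filter at the 50th percentile, 30 with the floor of 64, 25 with trend and robust, 40 at an adjusted p of 0.10, and 0 to 0 with an array left out. Named genes outside the group that changed sign were Zap70 (1.28), Dock6 (0.0369), Ptpn11 (0.0605) and Src (0.0117) with the mean of probe sets, Cttn after quantile normalization (0.092), and Inppl1 with arrays centred on their medians (-0.15). With an array left out, the differences ranged from -0.21 to 3.03 for Ms4a1, -0.30 to 0.23 for Cttn, -0.49 to 0.0843 for Pik3cb, -0.0582 to 0.17 for Inppl1, -0.0611 to 0.50 for Yes1, -0.40 to 0.24 for Ptpra, -0.51 to 0.21 for Sash1, -0.74 to 0.24 for Laptm4a and -0.62 to 0.11 for Grasp. The cause of these changes was not tested. At low signal the spread between arrays is wide, and signals under 64 carry little information on fold.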
